A study of Bos taurus and Bos indicus with 12 samples.

Results

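The genes described here encode the subunits of the 5 oxidative phosphorylation complexes, measured in bovine skin with and without cattle ticks. Members were the genes whose symbol in the platform annotation began with NDUFA, NDUFB, NDUFC, NDUFS, NDUFV, UQCR, COX4, COX5, COX6, COX7, COX8 or ATP5, together with SDHA, SDHB, SDHC, SDHD and CYC1. The rule found 110 probe sets of 85 genes, out of 9155 genes with a named probe set. Each gene is represented by the probe set with the highest mean over the 12 arrays, a choice that does not use the groups. Of the 85 members, 78 are subunits: 36 of complex I, 4 of complex II, 9 of complex III, 13 of complex IV and 16 of complex V. The other 7 share a prefix but are not subunits, and were counted apart: the complex I assembly factors NDUFAF3, NDUFAF5, NDUFAF6 and NDUFAF8, the paralog NDUFA4L2, the supercomplex factor COX7A2L and the ATP synthase inhibitor ATP5IF1. NDUFA4 was counted in complex IV, where its protein is now placed.

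Oxidative phosphorylation is the chain of reactions in the inner mitochondrial membrane by which cells make most of their ATP. Complex I takes electrons from NADH and complex II takes them from succinate. Both pass them through coenzyme Q to complex III, and cytochrome c carries them on to complex IV, which reduces oxygen. Complexes I, III and IV pump protons, and complex V, the ATP synthase, uses the returning protons to make ATP. All members are nuclear genes. A few further subunits of complexes I, III, IV and V are encoded by mitochondrial DNA and were not covered by the rule.

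Full-thickness skin punches came from 12 female cattle, 1 array per animal and 3 animals in each of 4 groups. Tick-naive Holstein-Friesian animals, a dairy breed, were 12 months old, and tick-naive Brahman animals, a zebu breed, were 18 months old. Infested animals of both breeds were 6 months old, had gone through repeated heavy challenge with the cattle tick R. microplus, and were biopsied where young larvae were attached. Naive animals had not met this tick before. Within a breed, infestation and age cannot be told apart. Values are log2 expression from a robust multi-array average (RMA), and a log2 difference of 1 is a 2-fold difference.

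The tissue label was checked first: the 5 measured keratinocyte markers lay between the 95.8th and the 100th percentile of signal, and none passed the test in either breed. An RNA integrity index was the mean 5' minus 3' signal of 5 bovine control transcripts in log2 units. It was lowest on infested Brahman array 1, at -4.91, which stood apart. Infested Holstein-Friesian array 1 was next at -2.73, near infested Brahman array 2. The other infested Brahman arrays were at -2.56 and -2.07, the other infested Holstein-Friesian arrays at -0.75 and -1.23, and the 6 naive arrays between -1.39 and -0.82. The index was therefore lower on all 3 infested Brahman arrays than on any naive array. Results are given below with and without the 2 arrays of lowest index where this matters.

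In Brahman skin 22 of the 85 members were lower in infested than in naive animals and none was higher. These came from all 5 complexes and included the catalytic subunits SDHA, NDUFS1, NDUFS7, NDUFS8, CYC1 and UQCRFS1. In Holstein-Friesian skin 2 members were lower, SDHA and UQCRB, and none was higher. Both were also lower in Brahman skin. The test was limma's moderated test over 24016 probe sets, with Benjamini-Hochberg adjustment and a threshold of 0.05.

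The Brahman count is 25.9% of the members, against 10.2% of all probe sets called lower, 9.54% called higher and 19.8% called in either direction. This excess was not kept in every fit: with the RNA integrity index in the model 2.35% of the members were called lower, against 3.33% of all probe sets. Without naive Brahman array 2 the count was 5 (5.88%, against 5.86%), so no excess was left there either. With fewer calls, the members' share stayed above that of all probe sets when another naive Brahman array was dropped. Without array 3 the count was 7 (8.24%, against 4.68%), and without array 1 it was 14 (16.5%, against 7.18%). Members were mostly bright, with a median signal percentile of 96 and 80 of the 85 above the 75th percentile. No share here was set against probe sets of like signal. The Holstein-Friesian count is 2.35% of the members, against 2.34% of all probe sets called lower, 2.68% called higher and 5.02% called in either direction. It is thus at the background level, and only its 2 genes are described as changed. Among one-per-gene probe sets over all named genes, the shares called lower were 11.2% in Brahman and 2.84% in Holstein-Friesian skin. At an unadjusted p under 0.05, 36 members differed in Brahman skin, 35 of them lower, and 21 in Holstein-Friesian skin, all lower. These are 42.4% and 24.7% of the members, against 34.7% and 21.6% of all probe sets. Counting the lower ones alone, they were 35 and 21 of the 85 members, against 17% and 11.3% of all probe sets.

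The median member difference was -0.36 in Brahman skin, ranging from -1.91 to 0.70, with 70 members below 0. It was -0.24 in Holstein-Friesian skin, ranging from -0.89 to 0.24, with 69 members below 0. Over all probe sets tested the medians were 0.04 and -0.03. In Brahman skin 38 members (44.7%) had all 3 infested arrays below all 3 naive arrays, against 19.3% of all probe sets. In Holstein-Friesian skin 30 members (35.3%) did, against 16% of all probe sets. The opposite order, all infested arrays above, held for 3 members in Brahman skin (3.53%, against 19.3% of all probe sets): COX7A1, COX8B and NDUFAF5. COX8B and NDUFAF5 each had a second probe set below 0, at -0.44 and -0.46. In both breeds 60 members were below 0, and in both 6 were above 0.

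Averaged over all members and set against the 6 naive arrays, the level was -0.25, -0.37 and -0.14 on the infested Holstein-Friesian arrays and -0.50, -0.21 and -0.45 on the infested Brahman arrays. The naive Holstein-Friesian arrays were at -0.11, 0.05 and 0.05 and the naive Brahman arrays at -0.08, 0.08 and 0.01. All 6 infested arrays were below all 6 naive arrays, but the gap between the nearest of them, infested and naive Holstein-Friesian arrays 3 and 1, was small. With each array centred on its median these were at -0.10 and -0.10, with the infested one slightly higher. On naive arrays 1 of the Holstein-Friesian and Brahman groups 69 and 67 of the 85 members lay below their naive mean, as on the infested arrays, where the number ran from 56 to 76. In bulk tissue, fewer cells rich in mitochondria and less of these transcripts per cell cannot be told apart.

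**Figure D1:**
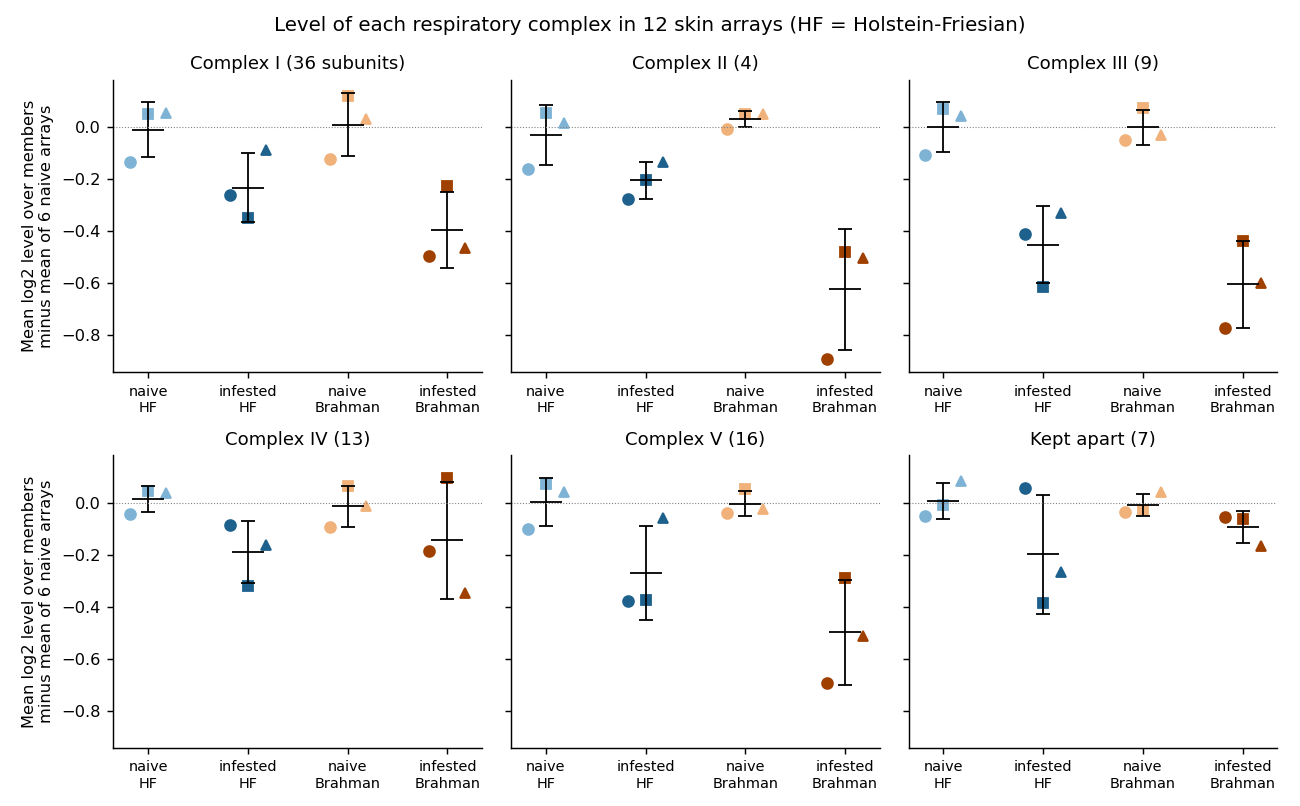
Level of each complex on each of the 12 arrays: the vertical axis is the members' mean log2 deviation from the 6 naive animals, the horizontal axis the group. Circles, squares and triangles are arrays 1, 2 and 3, and black bars are the group mean and SD (n = 3). The infested arrays of complex III lay below all naive arrays in both breeds, with means of -0.45 and -0.61, whereas the infested arrays of complex IV in Brahman skin reached from -0.35 to 0.10.

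Complex I is the NADH dehydrogenase. Of its 36 nuclear subunits, 9 were lower in infested Brahman skin, and none passed in Holstein-Friesian skin. The median difference was -0.38 in Brahman and -0.16 in Holstein-Friesian skin, and 26 subunits were below 0 in both breeds. The 6 measured core subunits, which bind the flavin and the iron-sulphur clusters or hold the quinone site, had medians of -0.75 and -0.59. The 30 accessory subunits, which surround the core, had medians of -0.34 and -0.15. Of the core 4 of 6 passed in Brahman skin, and of the accessory subunits 5 of 30. Over all probe sets 10.2% were called lower. With the integrity index all 4 core calls were lost, and of the accessory calls NDUFB3 alone was kept. Without naive Brahman array 2 or 3, NDUFS1, NDUFS8 and NDUFV2 were lost.

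NDUFS7, the core subunit that carries the last iron-sulphur cluster before the quinone, measured 10.02, 10.29 and 10.39 in naive and 8.58, 9.48 and 9.34 in infested Brahman skin. In Holstein-Friesian skin it measured 10.03, 10.25 and 10.05 in naive and 9.39, 9.22 and 9.41 in infested animals. The groups did not overlap in either breed, and array 1 was the lowest of the infested Brahman arrays. The Brahman difference was -1.10 ± 0.21 (SE, 3 against 3 arrays), a 2.15-fold lower level (limma adjusted p = 0.00673). The Holstein-Friesian difference of -0.77 missed the threshold (limma adjusted p = 0.0636).

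NDUFS1, the largest core subunit, which holds several iron-sulphur clusters, measured 10.13, 10.49 and 10.39 in naive and 9.73, 8.69 and 9.13 in infested Brahman skin. The groups did not overlap, and here array 1 was the highest of the infested arrays. On the chosen 1 of its 3 probe sets, NDUFS1 fell by 1.15 on the log2 scale (2.23-fold, limma adjusted p = 0.0268). On the other probe sets NDUFS1 was above 0 in Brahman skin. Its Holstein-Friesian values were 10.02, 10.26 and 10.13 in naive and 8.75, 9.74 and 9.93 in infested skin, a difference of -0.66 that did not pass (limma adjusted p = 0.25).

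NDUFS8, an iron-sulphur subunit, fell by 0.96 in Brahman skin (limma adjusted p = 0.021), and NDUFV2, a subunit of the NADH-binding module, fell by 0.53 (limma adjusted p = 0.0308). NDUFV1, which binds the flavin and NADH, was at -0.54 in Brahman and -0.51 in Holstein-Friesian skin and passed in neither (limma adjusted p = 0.066 and 0.141). NDUFS3 was nearest 0 among the core subunits, at -0.24 and -0.10. All core subunits but NDUFS3 had non-overlapping groups in both breeds.

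Among the accessory subunits, NDUFB3 of the membrane arm measured 10.58, 10.71 and 10.78 in naive and 9.98, 9.98 and 9.53 in infested Brahman skin. In Holstein-Friesian skin it measured 10.55, 10.51 and 10.88 in naive and 10.04, 10.02 and 10.44 in infested animals. All infested values were below the naive values of the same breed. NDUFB3 fell by 0.86 ± 0.18 (SE) in Brahman skin, 1.82-fold (limma adjusted p = 0.00826). The Holstein-Friesian difference was -0.48 (limma adjusted p = 0.143).

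NDUFS6, a zinc-binding accessory subunit, measured 9.39, 9.90 and 9.78 in naive and 6.86, 9.0 and 8.80 in infested Brahman skin. Its difference of -1.47 ± 0.45 (SE, limma adjusted p = 0.0406) was the largest fall in complex I, and array 1 lay far below the other infested arrays. Without that array it was -0.79. NDUFAB1, the mitochondrial acyl carrier protein, fell by 0.55, NDUFB2 by 0.51 and NDUFA6 by 0.43 (limma adjusted p = 0.0351, 0.0223 and 0.0433).

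In Holstein-Friesian skin the lowest complex I member was NDUFS7 and the highest NDUFC2, at 0.14. In Brahman skin the highest was NDUFA12, at 0.27, with infested values of 11.38, 11.24 and 10.71 that reached down into the naive range of 10.77 to 10.95. Neither difference passed the test.

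Complex II, the succinate dehydrogenase, is also an enzyme of the citrate cycle and is the only complex encoded wholly in the nucleus. SDHA, its flavin-bearing catalytic subunit, measured 10.42, 10.68 and 10.50 in naive and 9.74, 9.82 and 9.66 in infested Holstein-Friesian skin. In Brahman skin it measured 10.40, 10.41 and 10.27 in naive and 9.47, 9.50 and 9.22 in infested animals. The highest infested value of either breed lay below the lowest naive value. SDHA fell by 0.79 ± 0.13 (SE) in Holstein-Friesian skin, 1.73-fold (limma adjusted p = 0.0109), and by 0.97 ± 0.13 in Brahman skin, 1.96-fold (limma adjusted p = 0.0012).

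SDHC, a membrane anchor that helps to bind the haem and the quinone, measured 11.15, 11.33 and 11.16 in naive and 10.35, 10.69 and 10.50 in infested Brahman skin. In Holstein-Friesian skin it measured 10.95, 10.97 and 10.94 in naive and 10.92, 10.75 and 10.90 in infested animals. The wide gap in Brahman skin contrasts with infested Holstein-Friesian values that lay just under the naive ones. SDHC fell by 0.70 ± 0.12 (SE) in Brahman skin (1.63-fold, limma adjusted p = 0.00455), and the Holstein-Friesian difference was -0.10 (limma adjusted p = 0.703). The difference between these effects was -0.61, which had an unadjusted p of 0.00566 and did not pass after adjustment (limma adjusted p = 0.581).

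SDHB, the iron-sulphur subunit, was at -0.56 in Brahman and 0.18 in Holstein-Friesian skin. Its infested Brahman values were 9.22, 10.96 and 10.77, of which only array 1 lay far from the naive values of 10.78, 10.90 and 10.96. The other anchor, SDHD, was at -0.39 and 0.01. The 4 subunits thus had a median of -0.63 in Brahman skin, and of -0.04 in Holstein-Friesian skin, where SDHA alone passed. In Brahman skin SDHA and SDHC passed (50% of complex II, against 10.2% of all probe sets called lower), and SDHC was lost with the integrity index.

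Complex III, the cytochrome bc1 complex, had 5 of 9 members called in Brahman skin (55.6%, against 10.2% of all probe sets called lower). The count was 1 without naive Brahman array 2 (5.86% of all probe sets called lower) and 0 with the integrity index (3.33%). It was 3 without naive Brahman array 1 (7.18%) and 3 without array 3 (4.68%). With the probe sets of each gene averaged it was also 3, and the share over all probe sets was not counted. The medians were -0.59 in Brahman and -0.44 in Holstein-Friesian skin, and 8 of 9 members were below 0 in both breeds. Set against the naive arrays, its mean level was -0.78, -0.44 and -0.60 on the infested Brahman arrays and -0.41, -0.62 and -0.33 on the infested Holstein-Friesian arrays.

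UQCRB, a small subunit next to the quinone site, measured 11.06, 11.11 and 11.28 in naive and 10.47, 10.51 and 10.68 in infested Holstein-Friesian skin. In Brahman skin it measured 11.13, 11.28 and 11.09 in naive and 10.65, 10.60 and 10.46 in infested animals. All 6 infested values lay below all 6 naive values. UQCRB fell by 0.60 ± 0.12 (SE) in Holstein-Friesian skin (1.52-fold, limma adjusted p = 0.0247) and by 0.59 in Brahman skin (1.51-fold, limma adjusted p = 0.00913). The Holstein-Friesian call was lost without any 1 of 5 of the 6 Holstein-Friesian arrays: each naive array and infested arrays 2 and 3. It was also lost with the replicate number as a block in these 6 arrays (limma adjusted p = 0.0588).

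CYC1, cytochrome c1, which hands electrons to cytochrome c, measured 10.68, 10.66 and 10.63 in naive and 7.54, 9.75 and 9.61 in infested Brahman skin. In Holstein-Friesian skin it measured 10.57, 10.91 and 10.60 in naive and 9.90, 9.70 and 9.82 in infested animals. No infested value of either breed reached the naive range, and Brahman array 1 lay well below the other infested arrays. CYC1 fell by 1.69 ± 0.45 (SE) in Brahman skin, 3.22-fold (limma adjusted p = 0.0246), and by 0.98 without array 1. The Holstein-Friesian difference of -0.89 did not pass in the fit of all arrays (limma adjusted p = 0.282) and passed with the replicate number as a block in the 6 Holstein-Friesian arrays (limma adjusted p = 0.0464).

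UQCRC1 and UQCRC2, the core proteins of complex III, fell by 1.01 and 0.92 in Brahman skin (limma adjusted p = 0.0181 and 0.0263). UQCRC1 measured 11.11, 11.38 and 11.10 in naive and 9.50, 10.46 and 10.58 in infested Brahman skin, and was at -0.68 without array 1. UQCRFS1, the Rieske iron-sulphur protein, fell by 0.63 (limma adjusted p = 0.0134), with infested values of 10.95, 10.81 and 10.62 below naive values of 11.33 to 11.53. UQCRH, the hinge protein near cytochrome c1, was the one member of complex III above 0, at 0.19 in Brahman and 0.10 in Holstein-Friesian skin, and did not pass.

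**Figure D2:**
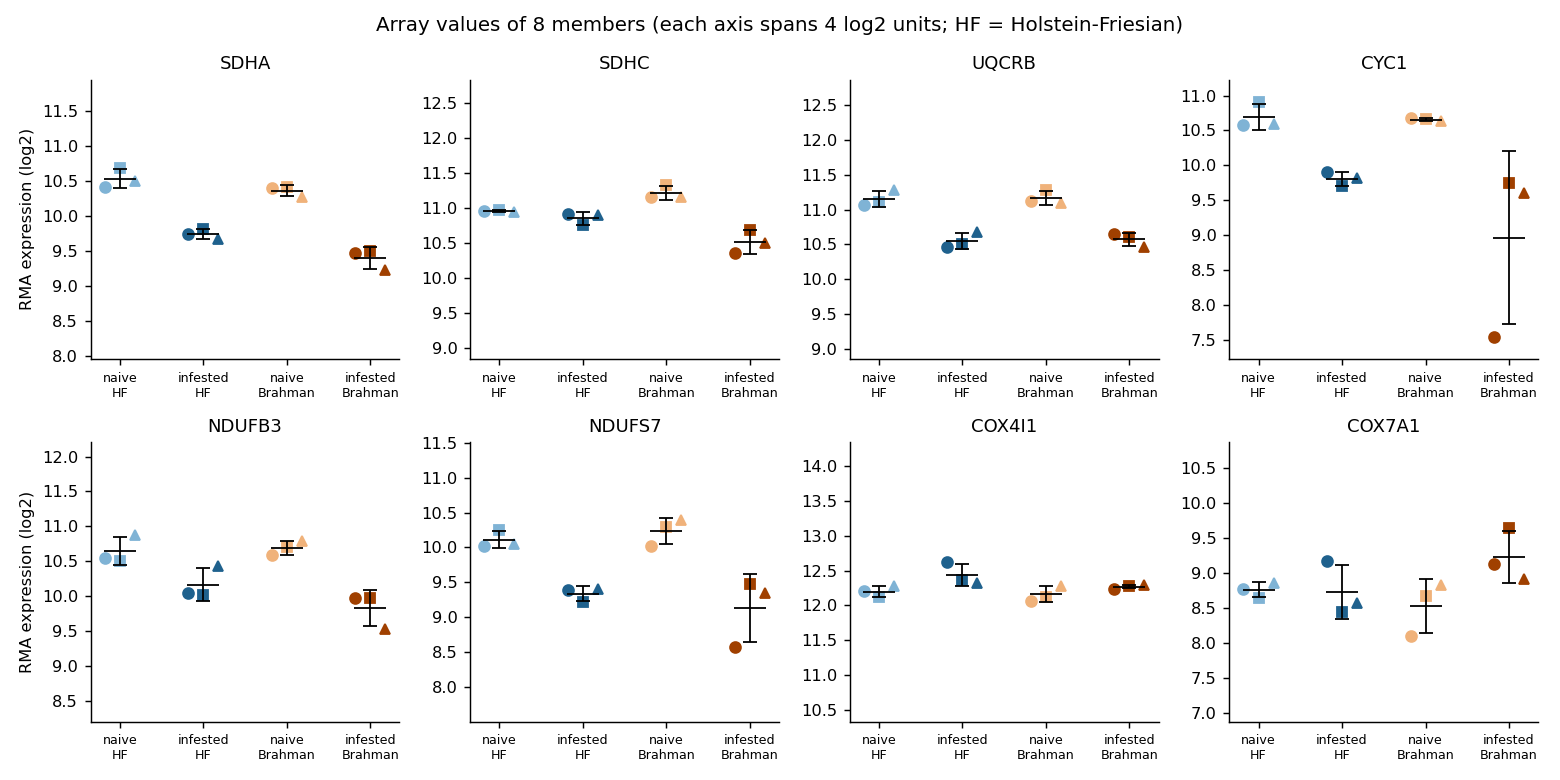
RMA log2 values of 8 members on each array: circles, squares and triangles are arrays 1, 2 and 3, black bars the group mean and SD (n = 3), and each vertical axis spans 4 log2 units around its own centre. SDHA and UQCRB were below the naive range on all 6 infested arrays, CYC1 had 1 infested Brahman array at 7.54, and no infested Brahman value of COX7A1 was below the naive Brahman range.

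Complex IV is cytochrome c oxidase, in which some subunits exist as isoforms used in different tissues. It had 2 of 13 members lower in Brahman skin (15.4%, against 10.2% of all probe sets) and none in Holstein-Friesian skin. Both Brahman calls were lost with the integrity index, and without naive Brahman array 2 or 3. The medians of complex IV were -0.18 in Brahman and -0.19 in Holstein-Friesian skin. Of the 13, 8 were below 0 in both breeds. NDUFA4 measured 12.17, 12.46 and 12.43 in naive and 11.76, 11.82 and 11.21 in infested Brahman skin, and fell by 0.76 (limma adjusted p = 0.0232). COX5A, which lies on the matrix side, measured 11.47, 11.47 and 11.43 in naive and 11.13, 10.89 and 10.50 in infested Brahman skin, and fell by 0.62 (limma adjusted p = 0.0331). Both genes also had non-overlapping groups in Holstein-Friesian skin, at -0.59 and -0.51, without passing (limma adjusted p = 0.114 and 0.122).

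COX4I1, the regulatory subunit found in most tissues, measured 12.20, 12.12 and 12.27 in naive and 12.62, 12.36 and 12.32 in infested Holstein-Friesian skin. It was the only member whose infested arrays all lay above the naive arrays in that breed, where 14.4% of all probe sets did so. The difference of 0.24 did not pass (limma adjusted p = 0.299), and the Brahman difference was 0.11. Its counterpart COX4I2 is not among the named probe sets used here.

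COX7A1, the heart and muscle isoform of subunit VIIa, had the largest positive difference of all members in Brahman skin, 0.70 ± 0.25 (SE), and missed the threshold (limma adjusted p = 0.0759). It measured 8.10, 8.67 and 8.83 in naive and 9.13, 9.65 and 8.91 in infested Brahman skin, so the groups did not overlap. In Holstein-Friesian skin the infested values of 9.17, 8.45 and 8.57 spanned the naive values of 8.77, 8.65 and 8.86. The isoform of other tissues, COX7A2, was at -0.39 in Brahman and -0.19 in Holstein-Friesian skin, and the related COX7A2L at 0.27 and 0.08.

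COX8B, also a muscle isoform, was at 0.34 in Brahman and 0.12 in Holstein-Friesian skin, and COX8A, its counterpart in other tissues, at -0.18 and -0.40. COX6A1 was at 0.09 and -0.24, and its muscle counterpart COX6A2, whose values lay between 5.30 and 6.56, at -0.18 and -0.04. COX8B and COX6A1 each have a second probe set, which was below 0 in both breeds. It was at -0.44 and -0.04 for COX8B and at -0.72 and -0.55 for COX6A1. COX6B2, best known from testis, was at 0.10 and -0.36, and COX6B1 is not among the named probe sets used here. None of these isoforms passed the test in any of the 5 comparisons. COX6A2 and COX6B2 were the only members below the 40th percentile of signal, at 36.5 and 37.1, where a level carries little information.

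Beside the muscle isoforms stand 15 measured skeletal muscle markers. Of these, 5 were lower and 1, CKM, was higher in infested Brahman skin, and none passed in Holstein-Friesian skin. Their mean level was -0.93, 1.00 and 1.54 on the naive Brahman arrays and between -0.93 and -0.78 on the infested ones. Naive Brahman animals thus differed more among themselves than the infested ones did. The part of muscle in the result was not tested.

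Complex V is the ATP synthase, with a catalytic F1 head and a membrane-bound Fo part joined by stalks. In Brahman skin 4 of 16 members were lower: ATP5F1A and ATP5F1B, the alpha and beta subunits of the head, ATP5PB of the peripheral stalk and ATP5MC3, which encodes the c subunit of the rotor ring. These are 25% of complex V, against 10.2% of all probe sets called lower. All 4 calls were lost with the integrity index, and without any 1 naive Brahman array. None passed in Holstein-Friesian skin. The medians were -0.44 in Brahman and -0.28 in Holstein-Friesian skin, and 14 of 16 were below 0 in both breeds.

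ATP5PB measured 11.56, 11.68 and 11.74 in naive and 11.10, 10.50 and 10.53 in infested Brahman skin, a fall of 0.95 (1.93-fold, limma adjusted p = 0.0256). ATP5F1A measured 12.86, 12.95 and 12.90 in naive and 12.42, 12.25 and 12.31 in infested Brahman skin, and fell by 0.58 (limma adjusted p = 0.047). ATP5F1B measured 11.85, 12.03 and 11.89 in naive and 11.36, 11.40 and 11.67 in infested Brahman skin, and fell by 0.45 (limma adjusted p = 0.0441). In all 3 genes the Brahman groups did not overlap. In Holstein-Friesian skin ATP5PB was at 10.51 on infested array 1 and at 11.38 and 11.56 on the other infested arrays, against naive values of 11.45 to 11.68.

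ATP5MC1, ATP5MC2 and ATP5MC3 encode the same mature c subunit with different targeting peptides. ATP5MC3 fell by 0.56 in Brahman skin (limma adjusted p = 0.0392) and was at -0.31 in Holstein-Friesian skin. ATP5MC1 was at -0.40 and -0.50. ATP5MC2 was at -0.69 in Brahman skin with infested values of 9.72, 12.10 and 12.03, of which only array 1 was below the naive values, and at 0.24 in Holstein-Friesian skin. Neither passed the test.

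ATP5F1D, the delta subunit of the central stalk, had the lowest value of all members in Brahman skin, -1.91 ± 0.72 (SE), and did not pass (limma adjusted p = 0.0842). It measured 10.49, 10.17 and 10.14 in naive and 6.01, 9.51 and 9.55 in infested Brahman skin. In Holstein-Friesian skin it measured 10.10, 10.32 and 10.25 in naive and 9.76, 9.42 and 9.71 in infested animals. The groups did not overlap in either breed, but the size in Brahman skin rests on array 1. The second probe set of ATP5F1D was at -0.32 in Brahman and -0.33 in Holstein-Friesian skin. The highest member of complex V in Brahman skin was ATP5ME, at 0.17.

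**Figure D3:**
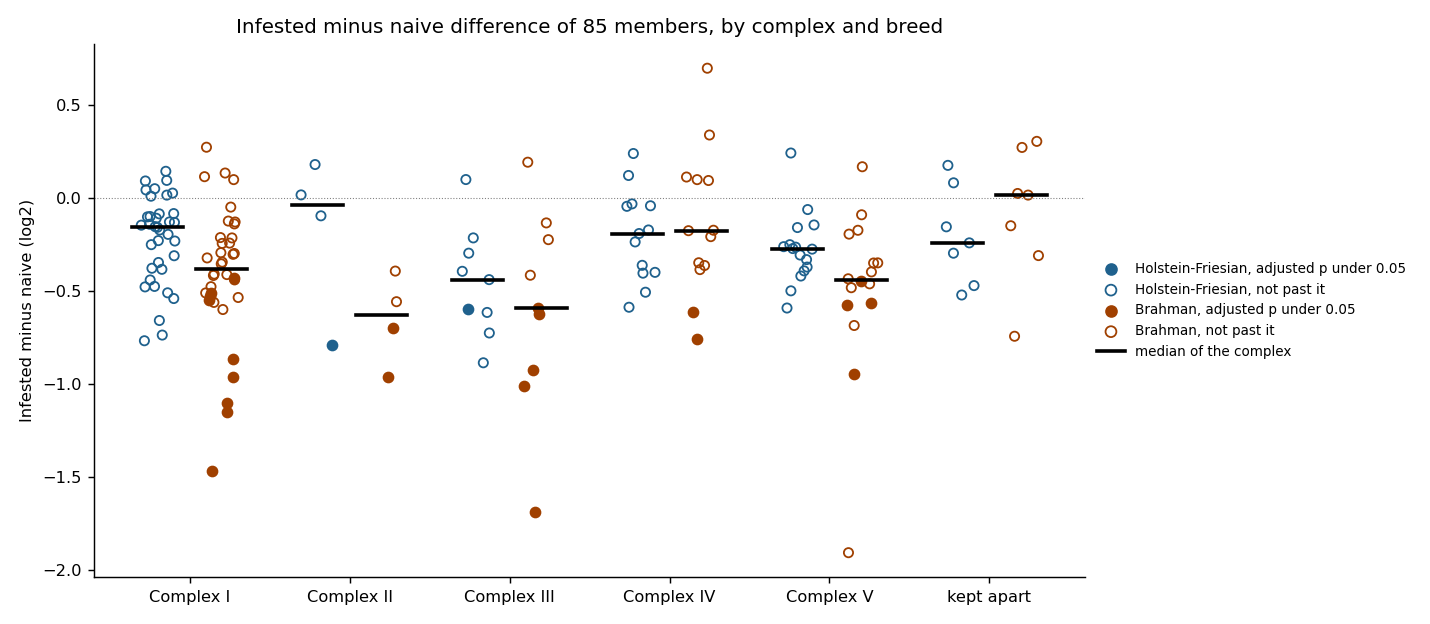
Infested minus naive log2 difference of each of the 85 members (vertical axis), by complex and breed (horizontal axis): 1 point per gene, filled where the limma adjusted p was under 0.05, with a black line at the median of the complex. The filled points are 2 in Holstein-Friesian skin and 22 in Brahman skin, all below 0.

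The 7 genes that share a prefix with the subunits had no call in either breed on their chosen probe sets, with medians of 0.01 in Brahman and -0.24 in Holstein-Friesian skin. NDUFAF6, an assembly factor of complex I, measured 6.49, 6.49 and 6.52 in naive and 6.36, 5.90 and 5.82 in infested Holstein-Friesian skin, and 6.67, 6.99 and 7.02 in naive and 6.90, 6.76 and 6.56 in infested Brahman skin. It was the highest of all members in infested Brahman against infested Holstein-Friesian skin, at 0.71, and did not pass (limma adjusted p = 0.156). NDUFA4L2 was at -0.75 in Brahman and 0.17 in Holstein-Friesian skin. Its second probe set was at 0.53 and 0.02, so the probe sets differed in sign in Brahman skin.

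The infestation effects of the breeds come from different animals and share only the pooled estimate of spread. All 22 members called in Brahman skin were below 0 in Holstein-Friesian skin, and 16 of them had non-overlapping groups there. The matching counts over all probe sets called lower in Brahman skin were not made. Of the 2461 probe sets called lower in Brahman skin, 421 were also called lower in Holstein-Friesian skin, against 2 of these 22 members. Groups did not overlap in both breeds, infested below naive, for 22 members (25.9%), against 8.42% of all probe sets. These were NDUFAB1, NDUFB2, NDUFB3, NDUFB7, NDUFS1, NDUFS7, NDUFS8, NDUFV1 and NDUFV2 of complex I, SDHA and SDHC of complex II, and CYC1, UQCR11, UQCRB, UQCRC1 and UQCRFS1 of complex III. NDUFA4, COX5A and COX5B of complex IV, ATP5F1B and ATP5F1D of complex V and the assembly factor NDUFAF8 completed them. The 2 members called in both breeds are 2.35% of the members, against 1.75% of all probe sets.

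Across the 85 members, the correlation between the breed effects was 0.588 (Pearson). It is a description over genes, which are not independent and share arrays within each breed.

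**Figure D4:**
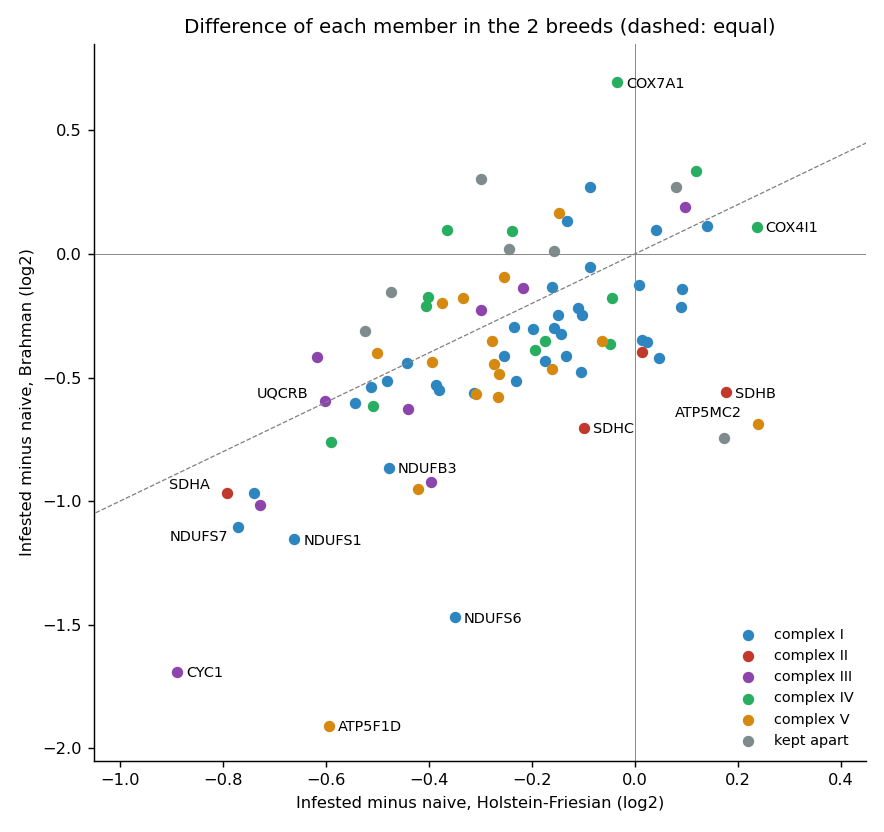
Infested minus naive log2 difference of each member in Holstein-Friesian (horizontal axis) and Brahman skin (vertical axis), 1 point per gene, coloured by complex, with equality dashed. Of 85 points, 60 lie below 0 on both axes, and CYC1, NDUFS6 and ATP5F1D lie far below the dashed line.

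The test of the difference between the breeds in the infestation effect called no member. It called 0.00416% of all probe sets, which is 1 probe set. The lowest adjusted p among members was 0.581, and SDHC was the 1 member with an unadjusted p under 0.05. The member median was -0.14, with 57 members lower in Brahman skin. The intervals show what this design leaves possible. For SDHA the difference between breeds was -0.18 with a 95% interval from -0.57 to 0.22. For UQCRB it was 0.01, from -0.38 to 0.39, and for CYC1 -0.80, from -2.20 to 0.59. The larger number of calls in Brahman skin is therefore not shown to be a difference between breeds.

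No member passed between naive Brahman and naive Holstein-Friesian skin (limma, 0.025% of all probe sets called). At an unadjusted p under 0.05, 3 members differed: COX6A1 was lower in Brahman skin, at -0.63, and COX6A2 and NDUFAF6 were higher, at 0.57 and 0.39. The second probe set of COX6A1 was at 0.03. The member median was 0.01. Groups did not overlap for 5 members higher and 6 lower in Brahman skin (5.88% and 7.06%), against 7.25% and 7.21% of all probe sets. The animals' ages differed, 18 against 12 months, so breed and age cannot be told apart here. Infested animals were of 1 age, and again no member passed between the breeds, where 0.167% of all probe sets did. At an unadjusted p under 0.05, 7 members differed, and the lowest adjusted p was that of NDUFAF6. NDUFS6 was at -1.32, SDHA at -0.35, SDHC at -0.34, and NDUFAF6 and COX8B, at 0.71 and 0.36, were the higher ones. The other members of the 7 were NDUFA6 and NDUFV3, at -0.31 and -0.35. The member median was -0.12. Groups did not overlap for 8 members lower in Brahman skin (9.41%) and 1 higher (1.18%), against 4.16% and 9.24% of all probe sets. These comparisons reuse the arrays of the infestation comparisons.

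The 150 measured genes in 10 lists of neighbouring mitochondrial functions gave 28 lower and 4 higher genes in Brahman skin, and 7 lower and none higher in Holstein-Friesian skin. The alternative settings were not run on these genes or on the cell type markers below. How far their calls rest on RNA integrity or on single arrays was therefore not tested. The lower genes are 18.7% and 4.67% of the lists, against 11.2% and 2.84% of all named genes, and the higher ones 2.67% in Brahman skin, against 8.5%. At an unadjusted p under 0.05 the numbers in both directions together were 51 (34%) and 32 (21.3%), near the 34.7% and 21.6% of all probe sets. At that threshold the lower genes of these lists were not counted apart. Of the 10 genes of coenzyme Q synthesis and the electron transfer flavoprotein, 3 passed in Brahman and 4 in Holstein-Friesian skin, all lower and all of coenzyme Q synthesis. COQ6, a hydroxylase of the pathway, fell by 1.36 in Brahman skin and by 1.09 in Holstein-Friesian skin (limma adjusted p = 0.00464 and 0.0319). PDSS1, which makes the isoprenoid tail, fell by 0.50 and 0.66 (limma adjusted p = 0.041 and 0.0377). COQ7 fell by 1.73 in Brahman skin, and COQ5 and COQ8A fell by 0.61 and 1.04 in Holstein-Friesian skin. The list medians were -0.50 and -0.52.

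Of the 4 measured complex I assembly genes outside the rule, ACAD9 fell by 2.26 in Brahman skin (limma adjusted p = 0.00331). Of the 12 complex IV assembly genes, COA1 and COA3 fell by 1.03 and 1.08 in Brahman skin, and COX15, which makes haem A, rose by 0.77 (limma adjusted p = 0.0155). None passed in Holstein-Friesian skin. The 4 complex II assembly genes and the 5 assembly genes of complexes III and V gave no call in either breed. The Brahman medians of these 4 lists ran from -0.37 to 0.17 and the Holstein-Friesian medians from -0.40 to -0.02.

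Of the 11 citrate cycle genes, IDH3G, OGDH, DLD and FH fell in Brahman skin, by 0.84, 1.32, 0.92 and 0.73, and none passed in Holstein-Friesian skin (medians -0.34 and -0.03). Of 11 carrier and pore genes, SLC25A5, which exchanges ATP for ADP, fell by 0.87 and VDAC1 by 0.79 in Brahman skin, while VDAC3 rose by 0.64. Of 67 mitochondrial ribosomal protein genes, 13 fell and 1, MRPS14, rose in Brahman skin, and MRPL12 and MRPL43 fell in Holstein-Friesian skin (medians -0.31 and -0.16). The lower genes are 19.4% of this list in Brahman skin and 2.99% in Holstein-Friesian skin, of which the second is at the share of all named genes. Of 18 import genes, TOMM40 fell in both breeds, by 0.78 in Brahman and 0.84 in Holstein-Friesian skin, TIMM21 and TIMM44 fell and TOMM5 rose in Brahman skin. None of the 8 measured regulators of mitochondrial genes passed in either breed, with PPARGC1A at -0.06 in Brahman skin.

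Markers of other cell types differed between the same groups. Of 8 sweat gland markers, KRT7, KRT18, KRT19, AZGP1 and CA2 fell in both breeds and AQP5 rose in Brahman skin. Their mean level was between -1.11 and -0.79 in infested Holstein-Friesian skin and between -1.31 and -0.89 in infested Brahman skin, against -0.35 to 0.33 on the naive arrays. Of 7 sebaceous gland markers, 2 fell in Holstein-Friesian skin, and in Brahman skin 4 fell and 1, FADS2, rose. Their level was between -1.36 and -0.94 on the 6 infested arrays and between -0.11 and 0.24 on the naive ones.

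Of 8 fibroblast markers, 3 rose in Holstein-Friesian and 7 in Brahman skin, with levels between 0.94 and 1.12 and between 1.23 and 1.48. Of 7 myeloid markers, 3 rose in Holstein-Friesian and 2 in Brahman skin, with levels between 0.65 and 1.52 on the infested and between -0.47 and 0.39 on the naive arrays. Of 8 adipocyte markers, 1 rose in Holstein-Friesian and 4 in Brahman skin, with infested levels of 0.17 to 0.47 and 0.74 to 1.33. The naive levels ran from -0.36 to 0.31, so the Holstein-Friesian groups overlapped. The 6 endothelium markers gave no call. The part of these cell types in the subunit differences was not tested.

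With the RNA integrity index in the model, 2 of the 22 Brahman calls were kept, SDHA and NDUFB3 (limma adjusted p = 0.0113 and 0.0411). All 22 kept a negative value, and their median moved from -0.73 to -0.63. The value stayed within 1.5 times of the original for 14 and became more than 1.5 times smaller for 8: CYC1, NDUFS6, NDUFS7, NDUFS8, UQCRC1, ATP5F1A, ATP5F1B and ATP5MC3.

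Without infested Brahman array 1, all 22 stayed negative and 3, CYC1, NDUFS6 and UQCRC1, became more than 1.5 times smaller. Without both array 1s of the infested groups, 20 of the 22 Brahman calls were kept and 16 members passed in Holstein-Friesian skin, all lower. These are 18.8% of the members, against 8.72% of all probe sets called lower in that fit. In Brahman skin further members passed in it, so that 31.8% of the members were called lower, against 14% of all probe sets. The infested Brahman arrays left in that fit, at -2.56 and -2.07, still had a lower integrity index than any naive array. Dropping a naive Brahman array changed the Brahman count most: 5 members passed without array 2, 7 without array 3 and 14 without array 1. These are 5.88%, 8.24% and 16.5% of the members, against 5.86%, 4.68% and 7.18% of all probe sets called lower. SDHA, SDHC, UQCRB, NDUFB3 and NDUFS7 passed in Brahman skin whichever array was left out.

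**Figure D5:**
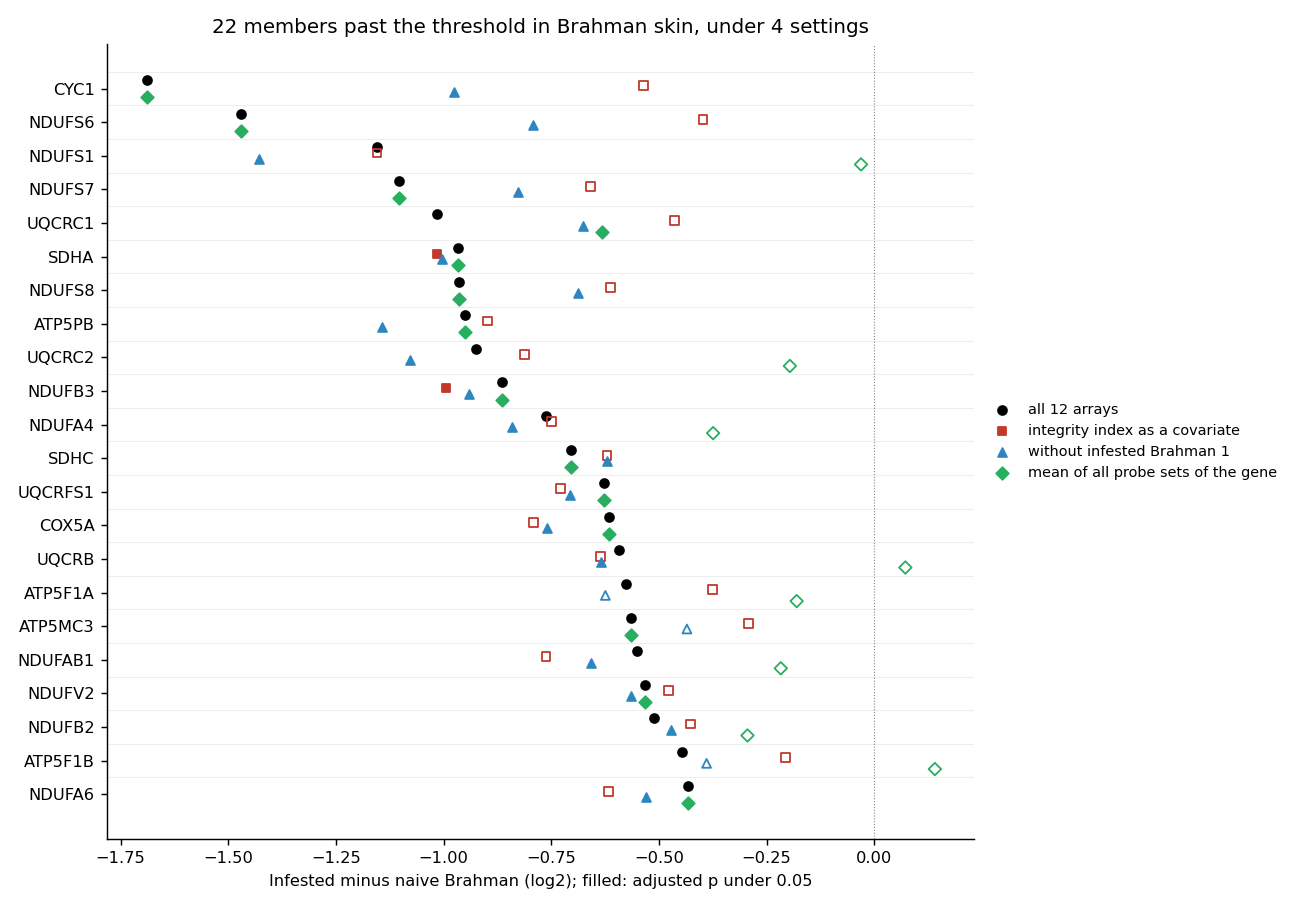
Infested minus naive Brahman log2 difference (horizontal axis) of the 22 members that passed, 1 row per gene, under 4 settings: all 12 arrays, the integrity index in the model, without infested Brahman array 1, and the mean of all probe sets of the gene; filled symbols had a limma adjusted p under 0.05. SDHA and NDUFB3 stayed filled in every setting, and UQCRB and ATP5F1B were above 0 in the mean of all probe sets.

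Probe sets of the same gene did not always move together. Of the 22 members with more than 1 probe set, 16 had probe sets of both signs in Brahman skin and 8 in Holstein-Friesian skin. The 25 probe sets not chosen were dimmer, with a median signal percentile of 34.2, and had a median difference of 0.20 in Brahman and -0.17 in Holstein-Friesian skin. The chosen probe sets of those genes had medians of -0.43 and -0.26. Of the 22 genes called in Brahman skin, 13 have a single probe set, among them SDHA, SDHC, NDUFB3, NDUFS7 and CYC1. Of the other 9, 7 had probe sets of both signs and 2 of these, ATP5F1B and NDUFS1, had probe sets called in both directions.

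The second probe set of UQCRB was at -0.01 in Holstein-Friesian and 0.74 in Brahman skin, passing in neither. ATP5F1B and NDUFS1 each had a dimmer probe set that rose in Brahman skin, by 0.73 and 0.45 (limma adjusted p = 0.0164 and 0.0448). The third probe set of NDUFS1 was at 0.61 without passing, and the mean over its probe sets was at -0.03. For NDUFS3 a second probe set rose by 2.05 (limma adjusted p = 0.0333) while the chosen one was at -0.24. The second probe set of UQCRC2 was at 0.53 in Brahman skin, against -0.92 for the chosen one (limma adjusted p = 0.196 and 0.0263). NDUFAF3, near 0 on its chosen probe set, had another that fell by 1.30 and one that rose by 0.71 (limma adjusted p = 0.00827 and 0.0253). UQCRC1 and NDUFB2 had all probe sets below 0. The 63 members with a single probe set had medians of -0.36 in Brahman and -0.23 in Holstein-Friesian skin, with 52 and 51 of them below 0.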

How the data were processed

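The deposited table holds log2 expression values, 1 per probe set and animal, which the authors made with RMA, per the submitters' processing notes. Which program ran RMA, and with which chip definition, is not given in the sources used here. Of 24128 probe sets, 112 controls were left out and 24016 tested, with no filter on signal. Gene symbols came from the platform annotation (13292 probe sets with 1 symbol, 86 with several, 10638 with none), and all 85 member gene IDs matched RefSeq. Array medians lay between 6.58 and 6.73. Precision is limited by the number of arrays.

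A mean for each of 4 groups was fitted to all 12 arrays with limma 3.58.1 in R 4.3.3 (lmFit, eBayes, 8 residual and 3.03 prior degrees of freedom), with two-sided tests and a Benjamini-Hochberg adjustment per comparison (5 in all). The script was tested on simulated data. Members are described by counts and medians with no test of the list. Members given by value were those past 0.05, the extremes of each complex and the isoform pairs, with the 10 smallest p in full. For genes outside the rule, those past 0.05 were named from lists. Members and lists were chosen with earlier results of these data known.

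Alternatives covered normalization, a signal filter (40th percentile), the prior, array weights, the samples fitted, each animal left out, the integrity index, the probe set per gene and the replicate number as a block. The labels do not tie equal numbers to a shared source. Deviations of same-numbered naive and infested arrays correlated at 0.113 to 0.249 in Holstein-Friesian and at -0.189 to -0.053 in Brahman animals. Same-numbered naive arrays of the 2 breeds reached 0.328, and differently numbered arrays were not compared. These values therefore do not settle whether equal numbers are paired. Blocked values stand beside the Holstein-Friesian results whose call they change.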

Additional observations from a re-analysis of the deposited data

How the results depend on the processing

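In Holstein-Friesian skin the count of 2 members became 5 with cyclic loess, 16 with array weights, 4 with only the compared arrays, 4 with the integrity index, 16 without both infested array 1s and 1 with the mean of all probe sets. Leaving out single animals gave 1 to 9 (9 without infested Brahman array 1, 4 without infested Holstein-Friesian array 1, and 1 without any naive Holstein-Friesian array or infested Holstein-Friesian array 2 or 3). In Brahman skin the count of 22 became 14 with median centring, 10 with only the compared arrays, 2 with the index and 14 with the mean of all probe sets, and ranged from 5 to 26 over single animals left out. Between infested breeds it became 3 with array weights and 5 without both array 1s, and ranged from 0 to 2 over single animals left out (2 without infested Holstein-Friesian array 1). The difference between breeds gave 3 calls without both array 1s: ATP5PB, NDUFS1 and UQCRC2. Calls over all probe sets changed with the setting as well. With the index, 4.71% of the members were lower in Holstein-Friesian skin, against 3.78% of all probe sets. Without both infested array 1s these shares were 18.8% and 8.72%. Apart from these fits, the replicate block and the naive Brahman arrays left out, the matching shares over all probe sets were not counted. The other counts alone therefore do not set the members apart. The complex II median in Brahman skin was -0.45 with the index and ranged from -0.83 to -0.54 over single animals left out. The complex III medians with the mean of all probe sets were -0.30 in Holstein-Friesian and -0.23 in Brahman skin, and the first ranged from -0.59 to -0.39 over single animals left out. With that mean, ATP5F1B and UQCRB turned positive in Brahman skin, at 0.14 and 0.072. With the replicate block, both Holstein-Friesian calls and 19 of the 22 Brahman calls were kept (COX5A, NDUFA6 and NDUFAB1 were lost). The replicate block fitted to the Holstein-Friesian animals only, added after seeing the data, lost UQCRB, gained CYC1 and kept SDHA. Median centring moved all differences by 0.05 in Holstein-Friesian and 0.09 in Brahman skin. SDHA passed in all 23 alternatives in Holstein-Friesian and all 22 in Brahman skin, and NDUFB3 in all 22 in Brahman skin.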
